A study of Mus musculus with 2 samples.

Results

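The Fn1-high cells described here are the non-cycling cells with abundant fibronectin transcript in 2 mouse cultures of myeloid-derived suppressor cells, 1 grown with the exportin 1 inhibitor Selinexor and 1 with its vehicle DMSO. The members were chosen by measured UMI counts of the cells themselves. A cell was a member if it had at least 200 detected genes, under 10% mitochondrial transcripts and at least 2000 UMIs (unique molecular identifiers, counted transcript molecules), with at least 5 Fn1 UMIs. It also had at most 1 UMI of C1qa, C1qb and C1qc together, at most 1 UMI of Pf4, Maf and Stab1 together, and under 5 UMIs of Mki67 and Top2a together. Mpo, Elane, Prtn3 and Ctsg together, which encode primary granule proteins of neutrophil precursors, made up under 0.5% of its UMIs. This gave 293 members among 3773 deposited barcodes, 261 in the Selinexor library and 32 in the DMSO library.

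The Selinexor culture received 50 nM Selinexor, and the DMSO culture received the vehicle. Both were differentiated with the cytokines GM-CSF and IL-6, each at 40 ng/ml, and live CD11b-positive cells were sorted on day 4, tagged by culture and captured together on the 10x Genomics platform. The labels name neither the mouse strain nor the tissue from which the cultures were started. Each treatment was 1 culture and 1 library, so no difference below has a replicate check, no test was made, and every interval covers counting error only. Cells of 1 library are not replicates.

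Fibronectin, the product of Fn1, is a matrix glycoprotein that cells bind through integrins and syndecans. Inflammatory monocytes make Fn1 as they leave the blood and take on macrophage functions, and Mrc1, the mannose receptor, marks many tissue macrophages. Exportin 1, encoded by Xpo1, is the main carrier that moves proteins from the nucleus to the cytoplasm, and Selinexor binds it and blocks this transport.

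The members made up 22.0% of the 1184 Selinexor cells of at least 2000 UMIs (exact 95% Clopper-Pearson interval 19.7 to 24.5) and 2.24% of the 1429 such DMSO cells (1.54 to 3.15). Of all cells that passed the gene and mitochondrial limits they were 13.3% of 1967 in the Selinexor library and 1.84% of 1743 in the DMSO library. The median member had 12005 UMIs in the Selinexor library and 10538 in the DMSO library, and no cell barcode was shared (0 barcodes). Fn1 ranged from 5 UMIs through a median of 14 to 139 per Selinexor member, and from 5 through 6.5 to 32 per DMSO member. The ranges overlapped, but 25 of the 32 DMSO members had 5 to 9 Fn1 UMIs, whereas 77 of the 261 Selinexor members did. At 50 or more Fn1 UMIs there were 19 Selinexor members and 0 DMSO members.

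**Figure D1:**
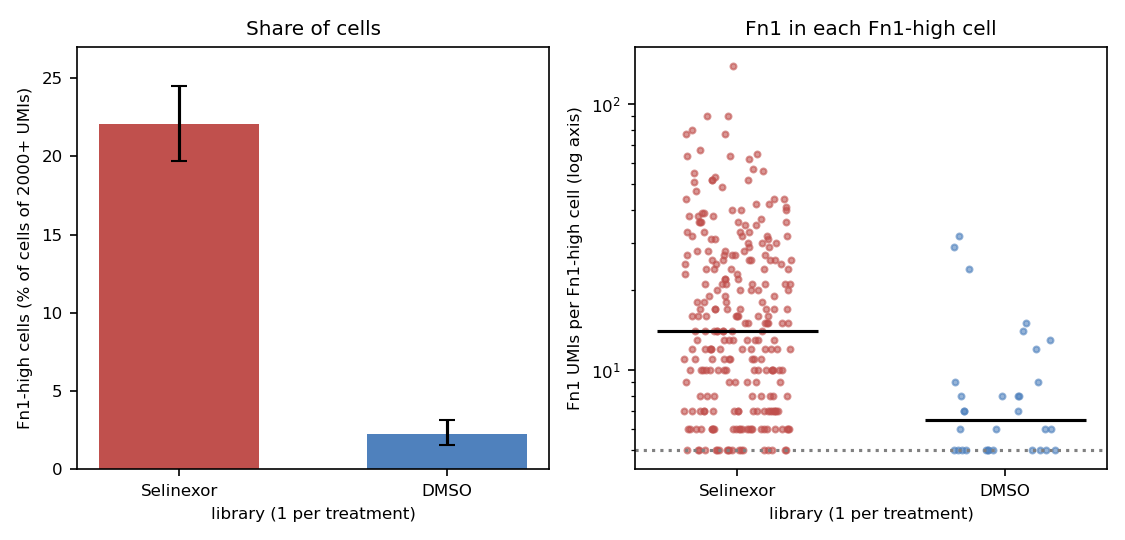
Left, Fn1-high cells as a percentage of all cells of at least 2000 UMIs in the Selinexor and DMSO libraries, with exact 95% Clopper-Pearson intervals (22.0% and 2.24%). Right, Fn1 UMIs in each Fn1-high cell on a log axis, with the median as a line (14 and 6.5) and the minimum of 5 as a dotted line.

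More cells carried Fn1 than the members. In the Selinexor library 409 cells had at least 5 Fn1 UMIs, of which 127 were set aside as cycling, 9 for C1q, 8 for Pf4, Maf and Stab1, and 4 for depth. In the DMSO library 81 cells had as many, with 27, 8, 14 and 0 set aside for the same reasons. The members held 61.8% of the Fn1 UMIs of the Selinexor library and 23.8% of those of the DMSO library. Fn1 was also higher in other Selinexor classes, at 580 CPM against 88.2 CPM in DMSO for cycling cells. It was 1374 against 290 CPM in cells with Pf4, Maf or Stab1 and 823 against 160 CPM in C1q cells. The share of members is thus a share of cells above a fixed Fn1 limit, and whether the number of cells of 1 type differed was not tested. Cells rich in primary granule transcripts, taken as a class that should lack the gene, held 1 Fn1 UMI in the Selinexor library and 5 in the DMSO library, a level of 3.003 and 4.74 CPM (UMIs scaled to a sum of 1e6 per class).

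Cells lay close to the Fn1 minimum on both sides. Just inside it, the 19 Selinexor cells with exactly 5 Fn1 UMIs had Mrc1 at 295 CPM and S100a8 at 12605 CPM, and the 12 DMSO cells had Mrc1 at 157 CPM and S100a8 at 33828 CPM. Just outside it, the 17 Selinexor cells with 4 Fn1 UMIs had Mrc1 at 205 CPM and S100a8 at 21238 CPM, and the 11 DMSO cells had Mrc1 at 34.5 CPM and S100a8 at 50550 CPM.

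The 5 genes given as marks of these cells were not alike. Mrc1 was present in most members, whereas Ch25h, Npy and Shisa4 were seen in a minority of Selinexor members and in at most 2 of the 32 DMSO members. Mrc1 ranged from 0 through a median of 3 to 28 UMIs per Selinexor member and from 0 through 1 to 14 per DMSO member, a summed level of 393 CPM and 325 CPM. It was detected in 188 of 261 Selinexor members (72.0%) and 19 of 32 DMSO members (59.4%), against 27 of 423 Selinexor cells (6.38%) and 80 of 734 DMSO cells (10.9%) with no Fn1 UMI. Depth differed between these classes, with medians of 12005 and 10538 UMIs in members and 4688 and 6457 in cells without Fn1. After each cell was thinned to 2000 UMIs, Mrc1 was detected in 44.1% of Selinexor members and 28.1% of DMSO members, against 2.36% and 4.77% of the cells without Fn1.

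Ch25h, which encodes cholesterol 25-hydroxylase, an enzyme that makes an oxysterol from cholesterol, had 127 UMIs in 46 of the Selinexor members and 2 UMIs in 2 of the DMSO members. Npy, which encodes the signalling peptide neuropeptide Y, had 54 UMIs in 36 Selinexor members and 1 UMI in 1 DMSO member. Shisa4, a gene of the SHISA family of transmembrane adaptors, had 67 UMIs in 53 Selinexor members and 1 UMI in 1 DMSO member. The log2 ratio of Selinexor over DMSO members was 2.84 for Ch25h (exact 95% counting interval 0.96 to 5.90), 2.61 for Npy (0.07 to 7.94) and 2.92 for Shisa4 (0.39 to 8.24), so these intervals are wide. In the Selinexor cells without a Fn1 UMI, 2, 2 and 4 of 423 cells had a UMI of Ch25h, Npy and Shisa4. Thinned to 2000 UMIs, 8.05%, 1.53% and 4.598% of Selinexor members kept one, and 0 of 32 DMSO members did, which at this number of cells allows a share of up to 10.9% by the exact interval. In the same Selinexor library Ch25h had a higher CPM in the 14 cells with Pf4, Maf or Stab1 (160 CPM) and in the 23 C1q cells (119 CPM) than in the members (40.2 CPM). Npy stood at 27.8 CPM (4 UMIs) and 22.3 CPM (6 UMIs) in these classes, against 17.1 CPM in the members. Shisa4 stood at 20.8 CPM (3 UMIs) and 11.1 CPM (3 UMIs), against 21.2 CPM in the members, so these marks were not particular to the members.

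Promoter sequence is shown for Ch25h, Mmp12 and Mrc1, which were highest in the members with the most Fn1, from the RefSeq table for GRCm38.p6, 250 bases before to 50 after the annotated start, 5′ to 3′ in the direction of the gene. Capitals mark matches, on either strand, to the motifs searched. These were CRE (TGACGTCA), AP-1 (TGANTCA), C/EBP (TTGCNNAA), PU.1 (GAGGAAGT), the TATA box (TATAAA) and the E-box (CACGTG), and no 2 matches shown overlap. Ch25h lies on chr19:34475099-34475398, minus strand, Mmp12 on chr9:7344147-7344446, plus strand, the first of 2 annotated starts, and Mrc1 on chr2:14229164-14229463, plus strand.
Ch25h: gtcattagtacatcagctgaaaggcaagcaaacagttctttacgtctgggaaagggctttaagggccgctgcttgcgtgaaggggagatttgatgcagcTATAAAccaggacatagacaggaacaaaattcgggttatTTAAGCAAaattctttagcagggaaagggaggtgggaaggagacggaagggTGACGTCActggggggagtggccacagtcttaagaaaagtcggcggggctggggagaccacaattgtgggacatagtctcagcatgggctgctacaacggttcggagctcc
Mmp12: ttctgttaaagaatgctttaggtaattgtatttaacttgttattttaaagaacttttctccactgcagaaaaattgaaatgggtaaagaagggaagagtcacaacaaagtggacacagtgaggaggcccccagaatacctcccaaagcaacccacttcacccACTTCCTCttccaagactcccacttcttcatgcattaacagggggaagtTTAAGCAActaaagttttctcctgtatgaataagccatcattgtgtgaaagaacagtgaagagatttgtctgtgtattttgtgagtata
Mrc1: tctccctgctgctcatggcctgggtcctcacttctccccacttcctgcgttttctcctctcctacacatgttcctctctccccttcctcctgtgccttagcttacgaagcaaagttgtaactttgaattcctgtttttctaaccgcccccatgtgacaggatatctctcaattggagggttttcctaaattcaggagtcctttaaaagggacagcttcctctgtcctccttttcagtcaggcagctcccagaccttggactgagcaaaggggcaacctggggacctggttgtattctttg
The Ch25h window held, in order, a TATA box, a C/EBP match and a CRE, which occur in 13.6%, 10.8% and 1.79% of 32851 promoter windows of the same length. The Mmp12 window shown held a PU.1 match and a C/EBP match, present in 3.20% and 10.8% of windows. The window of the second Mmp12 start, chr9:7347124-7347423, held neither, but an AP-1 match and a TATAAA match, present in 7.81% and 13.6% of windows. This TATAAA match lay after the annotated start. The Mrc1 window, like those of Npy, Shisa4 and Xpo1, held none of the 6 motifs searched. A match describes these letters alone.

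Against the other cells of the same library, the members had higher levels of some genes of monocytes and of macrophages and lower levels of most measured late neutrophil genes. The rule chose the members on these same cells, so the values are a description. Of 9232 genes with at least 50 UMIs, 85 (0.921%) were at least 2-fold higher in Selinexor members than in the other 923 Selinexor cells and 254 (2.75%) at least 2-fold lower, on the log2(CPM + 10) scale used for every such count. Of 9256 genes in the DMSO library, 151 (1.63%) were at least 2-fold higher in the 32 members than in the other 1397 cells and 276 (2.98%) at least 2-fold lower. TMM scaling, which trims genes of extreme ratio before it sets library sizes, moved the median of all genes to -0.01 and -0.09, against 0.09 and 0.06 without it. The counts were then 48 higher and 303 lower in the Selinexor library, and 73 higher and 375 lower in the DMSO library.

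Several matrix genes other than Fn1, which chose the members and is left out of these counts, were higher in the members. Of 21 measured genes of matrix and remodelling, 6 were at least 2-fold higher and 1 lower in Selinexor members, with a median log2 difference of 0.55 beside 0.09 over all genes. In the DMSO library 5 of 22 were higher and 0 lower, with a median of 0.79 beside 0.06. Over all genes 0.921% were higher and 2.75% lower in the Selinexor library, and 1.63% and 2.98% in the DMSO library. Fn1 itself, at chr1:71585520-71653200, stood at 1698 CPM in Selinexor members and 369 CPM in the other Selinexor cells, and at 824 CPM in DMSO members and 69.0 CPM in the other DMSO cells. Mmp12, the macrophage elastase, ranged from 0 through 13 to 268 UMIs per Selinexor member and from 0 through 10.5 to 120 per DMSO member. Its level was 1928 CPM in Selinexor members against 616 CPM in the others, and 2105 CPM in DMSO members against 565 CPM in the others.

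Vcan, the matrix proteoglycan versican, stood at 592 CPM in Selinexor members and 224 CPM in the other Selinexor cells, and at 491 CPM in DMSO members and 226 CPM in the others. Tgfbi, a matrix protein induced by TGF-beta, was 830 CPM in Selinexor members against 355 CPM. Spp1, osteopontin, was 824 CPM against 283 CPM, and ranged from 0 through 2 to 180 UMIs per Selinexor member. The metalloproteinases Mmp14 and Mmp19 were 190 and 98.7 CPM in Selinexor members against 69.9 and 29.4 CPM in the others. Mmp9, a metalloproteinase stored in neutrophil granules, ran the other way at 5.38 CPM against 50.6 CPM.

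The receptors that hold fibronectin were less distinct. Of 12 measured integrin, syndecan and CD44 genes, 1 was at least 2-fold higher in Selinexor members and 0 lower, with a median of 0.38. Over all genes 0.921% were higher and 2.75% lower. The higher receptor gene was Sdc4, the fibronectin co-receptor syndecan 4, at 107 CPM in members and 47.1 CPM in the others. Itga1, the alpha chain of a collagen-binding integrin, was among the 15 highest genes in both libraries. It stood at 230 CPM in Selinexor members against 81.5 CPM in the others, and at 275 CPM in DMSO members against 77.2 CPM in the others.

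Of 17 measured phagocytic and scavenger receptors, 6 were at least 2-fold higher in Selinexor members and 0 lower (median 0.51). In DMSO members 6 of 16 were higher and 0 lower (median 0.56). Over all genes 0.921% were higher in the Selinexor library and 1.63% in the DMSO library. In both libraries the 6 were Mrc1, Msr1, Clec4n, Axl, Fcgr2b and Lrp1. Clec4n, which encodes the fungal receptor dectin-2, was 1034 CPM in Selinexor members against 373 CPM, and 1102 CPM in DMSO members against 516 CPM. It ranged from 0 through 11 to 106 UMIs per Selinexor member and from 0 through 9 to 35 per DMSO member. Fcgr2b, the inhibitory Fc receptor, was 384 CPM in Selinexor members against 144 CPM, and 404 CPM in DMSO members against 155 CPM.

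Monocyte genes were mixed. Of 18 measured genes of classical monocytes other than Fn1, 5 were at least 2-fold higher in Selinexor members (Vcan, Tgfbi, Ccr2, Clec4a1 and Clec4a3) and 4 lower, among them Fcnb, Plac8 and Chil3. In the DMSO library 5 of 18 were higher and 3 lower. Over all genes 0.921% were higher and 2.75% lower in the Selinexor library, and 1.63% and 2.98% in the DMSO library. Ccr2, the chemokine receptor that draws monocytes into tissue, was 342 CPM in Selinexor members against 146 CPM in the others, and 468 CPM in DMSO members against 155 CPM in the others. Csf1r, the receptor for the growth factor of monocytes and macrophages, was 215 CPM against 114 CPM in the Selinexor library and 289 CPM against 142 CPM in the DMSO library. Ly6c2, which encodes the surface antigen by which inflammatory monocytes are sorted, was lower at 793 CPM in Selinexor members against 1339 CPM, and 591 CPM in DMSO members against 706 CPM. The label monocyte-like therefore rests on part of the list, such as Ccr2 and the Clec4a genes, while Ly6c2, Plac8 and Chil3 ran the other way. Csf1r did not set the members apart from macrophage classes. It was 260 and 194 CPM in Selinexor C1q cells and cells with Pf4, Maf or Stab1, and 365 and 290 CPM in those of the DMSO library. Macrophage genes such as Mrc1, Mmp12 and Msr1 were higher in the same summed cells.

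A few genes of lipid handling and of the lysosome were higher as well. Of 27 measured, 4 were at least 2-fold higher in Selinexor members and 0 lower (median 0.53), beside 0.921% and 2.75% of all genes. In the DMSO library 4 of 26 were higher and 0 lower (median 0.37), beside 1.63% and 2.98%. Lpl, lipoprotein lipase, was 1521 CPM in Selinexor members against 573 CPM, and 1889 CPM in DMSO members against 699 CPM. Atp6v0d2, a subunit of the proton pump of lysosomes and osteoclasts, was 90.5 CPM against 20.2 CPM in the Selinexor library and 33.6 CPM against 7.93 CPM in the DMSO library. Ctss, the lysosomal protease cathepsin S, was 939 CPM against 358 CPM in the Selinexor library. Car4, a membrane carbonic anhydrase, and Slc7a2, a transporter of arginine and other cationic amino acids, had the highest differences of Selinexor members after Fn1. Car4 was 462 CPM in Selinexor members against 116 CPM, and 320 CPM in DMSO members against 152 CPM. Slc7a2 was 134 CPM in Selinexor members against 33.2 CPM, and 289 CPM in DMSO members against 51.5 CPM.

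Neutrophil transcripts were lower in the members but present, and those of lymphocytes and stromal cells were near 0. Of 17 measured late neutrophil genes, 13 were at least 2-fold lower in Selinexor members and 0 higher, beside 2.75% and 0.921% of all genes. Their summed level was 14791 CPM in members and 118277 CPM in the others. In the DMSO library the sum was 43154.5 CPM in members and 133814 CPM in the others. Ngp, a secondary granule gene of neutrophils, was 91.5 CPM in Selinexor members against 6244 CPM, and 70.1 CPM in DMSO members against 4003 CPM. Of the 12 T and NK cell genes, 10 were at 0 in Selinexor members and 12 in DMSO members. Of the 14 stromal fibroblast genes, which include the collagens of the cells that are the classical source of fibronectin, 12 were at 0 in Selinexor members and 13 in DMSO members, with 11 UMIs over the whole list in the 261 Selinexor members. Of 31 proliferation genes, 17 were at least 2-fold lower in Selinexor members, which the rule's limit on Mki67 and Top2a set in part.

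**Figure D2:**
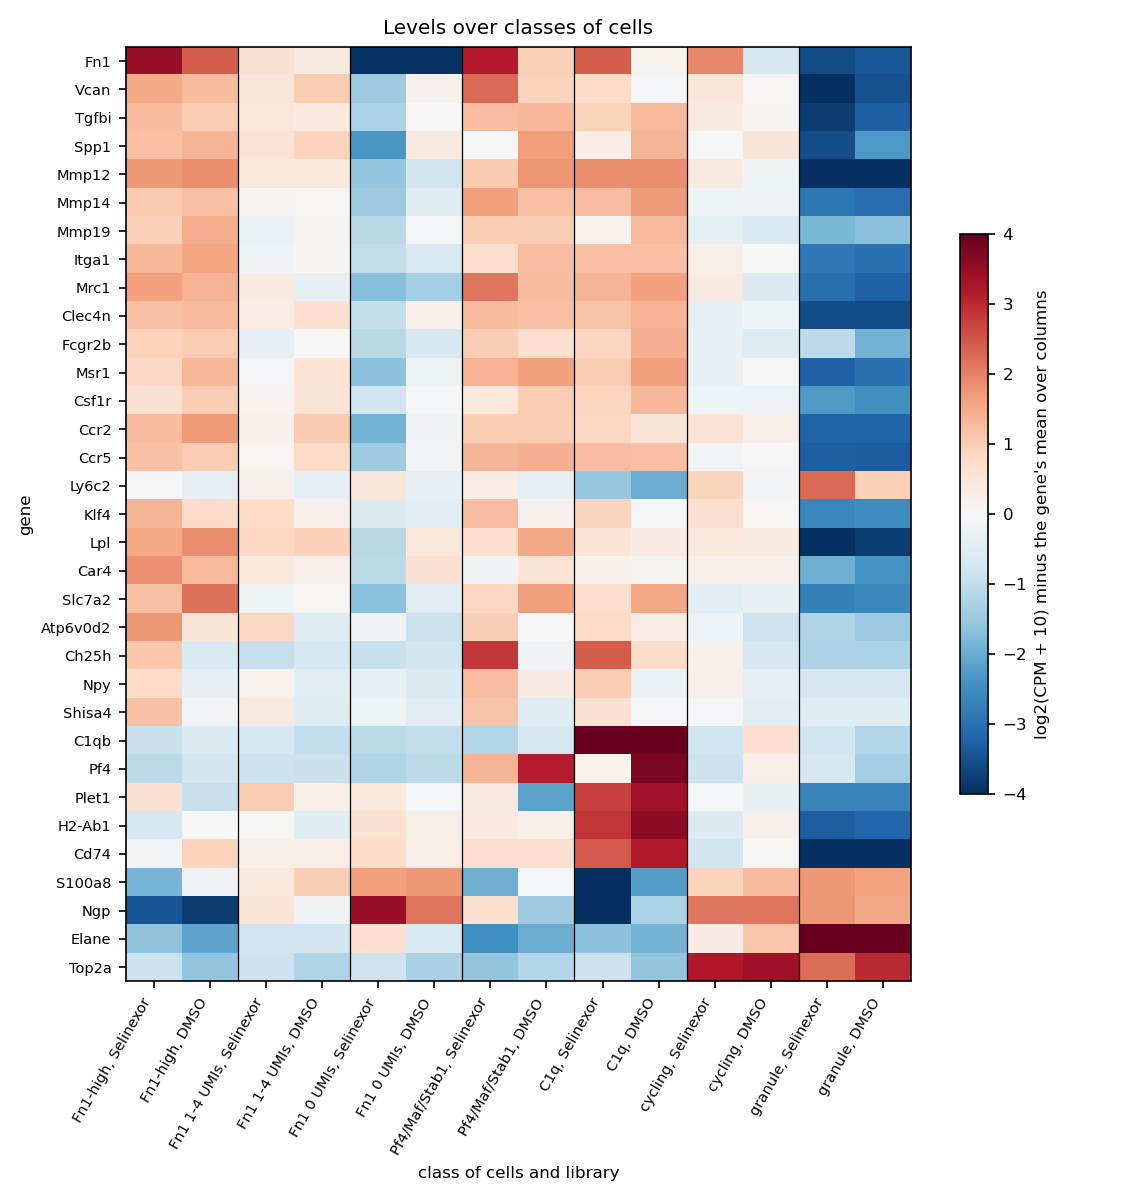
Level of 33 genes in 7 classes of cells, Selinexor left of DMSO in each pair. Color is log2(CPM + 10) minus the gene's mean over the 14 columns. Fn1-high columns share Mrc1, Mmp12, Itga1 and Clec4n with the C1q and Pf4/Maf/Stab1 columns, and are lower in H2-Ab1 than the C1q columns. The genes were chosen after their values were seen.

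Other classes shared much with the members. In Selinexor cells with 1 to 4 Fn1 UMIs, Mmp12 was 794 CPM, Mrc1 154 CPM and Car4 168 CPM, between the members and the cells without Fn1 (192, 29.5 and 52.9 CPM). The 23 Selinexor C1q cells shared Mmp12 (2133 CPM) and Mrc1 (323 CPM) with the members. The MHC class II gene H2-Ab1 was 144 CPM in Selinexor members and 1777 CPM in these C1q cells, and 235 CPM in DMSO members and 2930 CPM in the DMSO C1q cells. Car4 was higher in Selinexor members than in either macrophage class, at 462 CPM against 141 and 111 CPM.

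Within the Selinexor members, several genes followed the Fn1 level. Cells were put in bands of 5 to 9, 10 to 19, 20 to 49 and 50 or more Fn1 UMIs, holding 77, 84, 81 and 19 cells with medians of 11646, 11886, 12285 and 11258 UMIs. Mmp12 was 1042, 1413, 2509 and 5047 CPM over these bands. Mrc1 was 311, 335, 427 and 817 CPM, and Clec4n 698, 919, 1237 and 1941 CPM. Car4 was 246, 414, 614 and 839 CPM. The exact 95% Poisson intervals of the lowest and highest bands did not overlap for any of these 4 genes.

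Ch25h stood at 21.3, 28.7, 42.7 and 154 CPM over the bands, and Shisa4 at 16.9, 19.8, 17.4 and 61.5 CPM, so both were highest in the 19 cells with the most Fn1. Npy did not follow this order, at 10.1, 26.7, 13.6 and 17.6 CPM with overlapping intervals. Ly6c2 was lowest in the top band, at 884, 890, 716 and 356 CPM. S100a8, a calcium-binding alarmin that is among the most abundant neutrophil transcripts, was 11320, 7725, 2205 and 1107 CPM. In the DMSO members it was 27702 CPM in the 25 cells of 5 to 9 Fn1 UMIs, 5381 CPM in the 4 cells of 10 to 19 and 1883 CPM in the 3 cells of 20 to 49.

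Over single Selinexor members thinned to 2000 UMIs, the gene that best followed Fn1, among genes with at least 100 UMIs after thinning, was Ctss, with a Spearman correlation of 0.36 over 261 cells. Btg1 and Wfdc17 followed at 0.31 each, then Ighm and Fth1 at 0.29 each, and Clec4n and Mmp12 at 0.27 each. These values describe cells of 1 library that share depth and composition, and Mrc1 reached 0.14 and Spp1 -0.05 on the same cells.

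**Figure D3:**
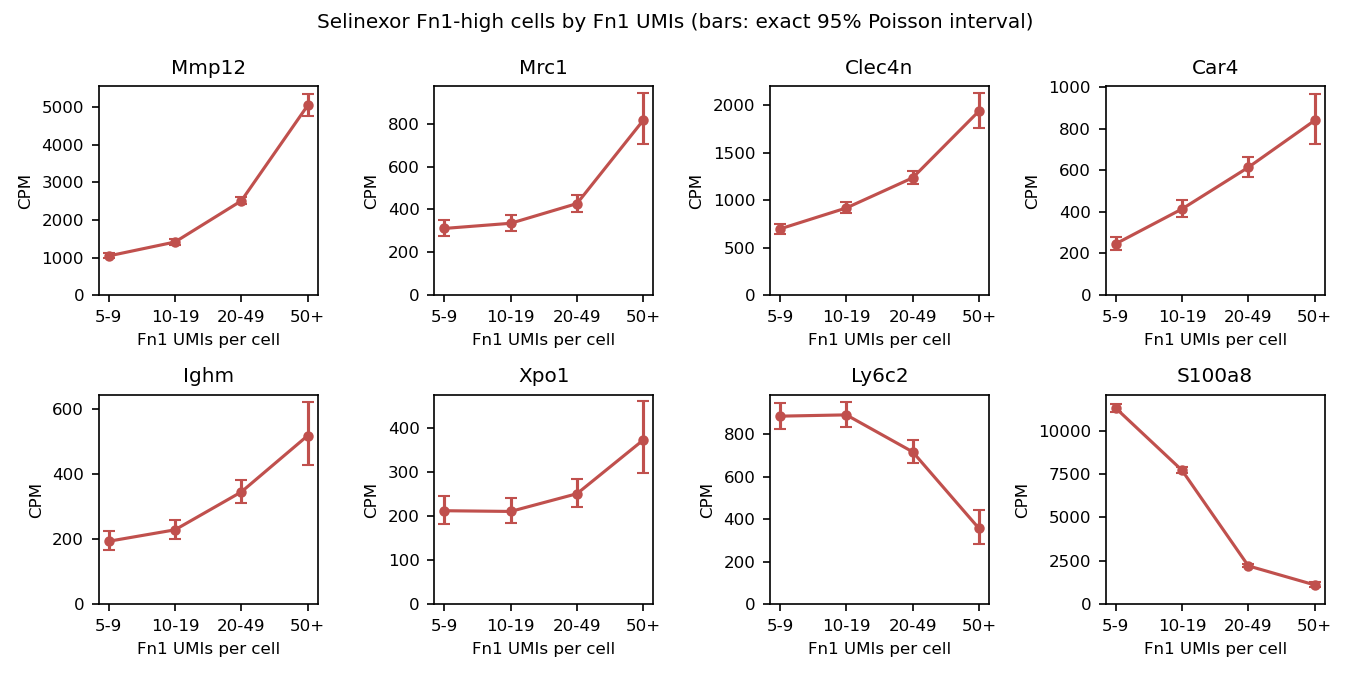
Summed level in CPM of 8 genes in Selinexor Fn1-high cells, in bands of Fn1 UMIs per cell (77, 84, 81 and 19 cells), with exact 95% Poisson intervals. Mmp12, Mrc1, Clec4n, Car4, Ighm and Xpo1 are highest at 50 or more Fn1 UMIs, whereas Ly6c2 and S100a8 are lowest there.

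Selinexor members were then set against DMSO members, which compares cells chosen by the same rule in the 2 cultures. Ighm, Xpo1, Hmgn1, Hmgn2 and 5 of 25 measured lipid and lysosome genes were at least 2-fold higher in Selinexor members, and stefin genes, S100a8, S100a9 and 3 of 23 glycolysis and hypoxia genes at least 2-fold lower. The differences of S100a8, S100a9, Stfa2 and Stfa2l1 turned in direction over members with at least 10 Fn1 UMIs, which few DMSO members had. At 5 to 9 Fn1 UMIs S100a8 and S100a9 remained lower in Selinexor members, as given with their values. The summed profiles of the 2 sets of members had a Pearson correlation of 0.945 across 6409 genes, which are not independent, on the log2(CPM + 10) scale. That of Selinexor members with Selinexor cells of 1 to 4 Fn1 UMIs was 0.971 and with DMSO cells with Pf4, Maf or Stab1 0.948, and that of DMSO members with DMSO cells of 1 to 4 Fn1 UMIs was 0.954. Of 6409 genes with at least 50 UMIs over both sums, 159 (2.48%) were at least 2-fold higher in Selinexor members and 81 (1.26%) at least 2-fold lower, with a median of 0.06. The DMSO sum rests on 32 cells and 356765 UMIs, the Selinexor sum on 261 cells and 3160060 UMIs, so precision is set by the DMSO members.

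Xpo1, which encodes the protein that Selinexor binds, had 746 UMIs in Selinexor members and 24 in DMSO members, or 236 CPM and 67.3 CPM. It ranged from 0 through 3 to 10 UMIs per Selinexor member and from 0 through 1 to 3 per DMSO member. The log2 ratio was 1.81 (exact 95% counting interval 1.23 to 2.46). Of 29 measured genes of nuclear transport, 3 were at least 2-fold higher and 0 lower, beside 2.48% and 1.26% of all genes. Their median was 0.34 beside 0.06 over all genes. The other two were Kpnb1, importin beta, at 121 CPM in Selinexor members and 44.9 CPM in DMSO members, and Cse1l, the exporter of importin alpha, with 94 and 3 UMIs. The log2 difference of Cse1l was 1.11, and -0.32 when each cell was thinned to 2000 UMIs.

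The highest gene was Ighm, the constant region of the IgM heavy chain, on chr12:113418558-113422730. It had 877 UMIs in Selinexor members and 1 UMI in DMSO members, a log2 ratio of 6.63 (4.15 to 11.93). A UMI was found in 196 of 261 Selinexor members (75.1%) and 1 of 32 DMSO members (3.12%), with 0 through 3 to 15 UMIs per Selinexor member. Of the 12 B and plasma cell genes, which include Ighm, 8 were at 0 in Selinexor members, Ms4a1, Pax5 and Igkc among them, and the whole list had 890 UMIs there. Ighm stood at 193, 229, 345 and 518 CPM over the bands of rising Fn1. It was also high in the other Selinexor classes, from 99.4 CPM in cycling cells to 437 CPM in cells with Pf4, Maf or Stab1, against 9.61 to 34.1 CPM over the other DMSO classes.

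Chromatin genes Hmgn1 and Hmgn2, which encode proteins that bind nucleosomes, were also among the 15 highest. Hmgn1 ranged from 0 through 6 to 19 UMIs per Selinexor member and from 0 through 1 to 5 per DMSO member, at 494 CPM and 98.1 CPM, a log2 ratio of 2.33 (1.85 to 2.86). Hmgn2 was 156 CPM and 39.2 CPM. Slc16a6, a monocarboxylate transporter family gene, was 210 CPM in Selinexor members and 30.8 CPM in DMSO members. Odc1, ornithine decarboxylase, the first enzyme of polyamine synthesis, was 280 CPM and 86.9 CPM. Cd93, a surface receptor of myeloid and endothelial cells, was 151 CPM and 28.0 CPM, and Sgk1, a kinase induced by serum and glucocorticoids, was 169 CPM and 44.9 CPM. Fam122b (319 and 2 UMIs), Serpinb6a, Lrrc8d, Plet1, Smpdl3b and Rb1cc1 made up the rest of the highest genes with Gpnmb.

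Of 25 measured genes of lipid handling and the lysosome, 5 were at least 2-fold higher in Selinexor members and 0 lower, with a median of 0.30. Over all genes 2.48% were higher and 1.26% lower. The 5 were Gpnmb, Lgmn, Atp6v0d2, Ctsd and Cd63. In cells of 1 to 4 Fn1 UMIs, 5 of 24 were at least 2-fold higher and 0 lower, beside 79 and 58 of 4993 over all genes. In cells without Fn1, 3 of 26 were higher and 1 lower, beside 120 and 102 of 7771. Ctsd, the lysosomal protease cathepsin D, was 1746 CPM in Selinexor members and 785 CPM in DMSO members, a log2 ratio of 1.15 (0.98 to 1.33). Cd63, a membrane protein of late endosomes, was 446 CPM and 205 CPM, and Gpnmb, a glycoprotein of lysosome-rich macrophages, was 82.6 CPM and 11.2 CPM. Atp6v0d2 was 90.5 and 33.6 CPM, and its log2 difference was 1.204 over all members and 0.37 over those with at least 10 Fn1 UMIs.

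**Figure D4:**
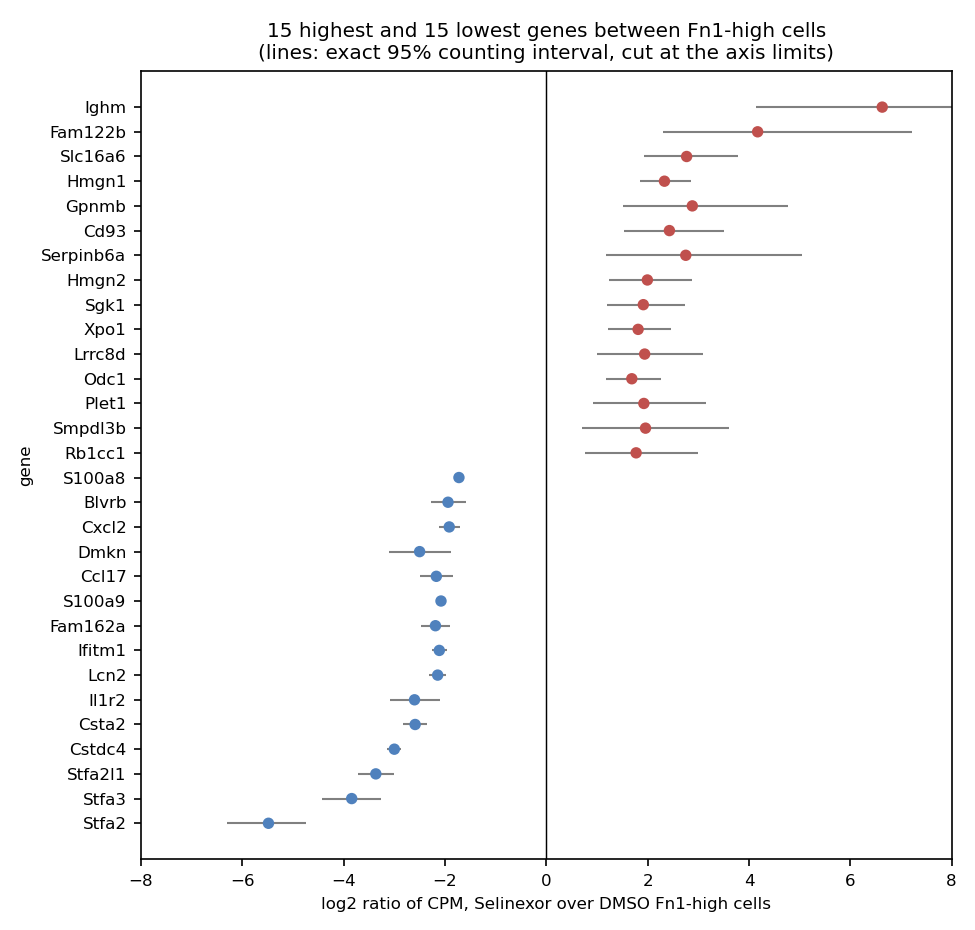
Log2 ratio of CPM in Selinexor over DMSO Fn1-high cells for the 15 highest (red) and 15 lowest (blue) genes, ordered by their difference on the log2(CPM + 10) scale, with exact 95% counting intervals as lines. Ighm stands at 6.63 with 1 UMI in DMSO members, and the stefin genes Stfa2, Stfa3 and Stfa2l1 lie at the bottom.

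The lowest genes were led by stefins, inhibitors of cysteine proteases. Stfa2, Stfa3, Stfa2l1, Cstdc4 and Csta2 stood at 5.70, 13.3, 38.6, 295 and 114 CPM in Selinexor members and at 255, 191, 398, 2363 and 684 CPM in DMSO members. These genes are near-identical copies, so the split of reads among them is uncertain. S100a9 and S100a8 were 3833 and 6459 CPM in Selinexor members and 16198 and 21356 CPM in DMSO members, and Lcn2, a neutrophil granule protein that binds iron carriers, was 274 and 1211 CPM. S100a8 ranged from 2 through 15 to 870 UMIs per Selinexor member and from 2 through 37.5 to 1474 per DMSO member, so the ranges overlapped.

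A few cells held most of these neutrophil transcripts. S100a8 and S100a9 made up at least 2% of UMIs in 29 of 261 Selinexor members and 9 of 32 DMSO members, and these cells held 69.5% and 89.9% of the S100a8 and S100a9 UMIs. Over members with at least 10 Fn1 UMIs, of which the DMSO library had 7, the log2 difference was 0.16 for S100a8, 0.97 for S100a9, 1.18 for Lcn2, 0.61 for Stfa2, 0.83 for Stfa2l1 and 0.13 for Ifitm1. All 6 were at least 2-fold lower over all members. Stfa3, Cstdc4 and Csta2 did not turn in direction at this limit. At 5 to 9 Fn1 UMIs, which 25 of the 32 DMSO members had, S100a8 was 11320 CPM in Selinexor members and 27702 CPM in DMSO members. S100a9 was 7158 and 21671 CPM in the same cells. With the cells of at least 2% left out, S100a8 was at -0.47 and Stfa2 at 0.54. The part of neutrophil RNA in the lower level of these genes was not tested.

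Most genes of glycolysis and hypoxia had differences below 0 in Selinexor members, and few were 2-fold lower. Of 23 measured, 20 were below 0 and 3 of them at least 2-fold lower, where 43.3% and 1.26% of all genes were. None (0) was at least 2-fold higher, and the median was -0.54 beside 0.06 over all genes. The median was below 0 in the other classes too, at -0.80 in cells without Fn1, -0.72 in C1q cells and -0.71 in cells with Pf4, Maf or Stab1. It was -0.47 in cells of 1 to 4 Fn1 UMIs, -0.42 in cells rich in primary granule transcripts and -0.36 in cycling cells. Egln3, an oxygen-sensing prolyl hydroxylase, was 8.23 CPM in Selinexor members and 107 CPM in DMSO members, a log2 ratio of -3.69 (-4.47 to -2.94). Ero1l, an oxidase of the endoplasmic reticulum, was 57.3 and 185 CPM, and Bnip3, a mitophagy receptor, 30.4 and 107 CPM. Fam162a, a mitochondrial protein gene induced by low oxygen, was among the 15 lowest at 95.9 and 437 CPM. Gapdh, Pkm and Tpi1, enzymes of glycolysis, were 1532, 766 and 376 CPM in Selinexor members and 2228, 1099 and 659 CPM in DMSO members. Ldha, lactate dehydrogenase A, was close at 879 and 914 CPM. At 10 or more Fn1 UMIs the differences of Egln3, Ero1l and Bnip3 were -3.43, -1.75 and -2.04.

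Antigen presentation genes had differences below 0, mostly of under 2-fold. Of 7 measured MHC class II genes, 7 were below 0 and 2 at least 2-fold lower, where 43.3% and 1.26% of all genes were, and their summed level was 1595 CPM in Selinexor members and 2994 CPM in DMSO members. Cd74, the invariant chain, was 899 and 1830 CPM, with a log2 ratio of -1.03 (-1.15 to -0.90), and H2-DMa, the peptide exchange factor chain, was 221 and 519 CPM. H2-Ab1 was found in 78 of 261 Selinexor members (29.9%) and 12 of 32 DMSO members (37.5%). Its direction turned to 0.27 over cells with at least 90% of tag UMIs from 1 tag. At 5 to 9 Fn1 UMIs H2-Ab1 was close, at 164 CPM in Selinexor members and 172 CPM in DMSO members. It was 87.1 and 201 CPM at 10 to 19 Fn1 UMIs. At 20 to 49 it was 171 CPM in Selinexor members and 747 CPM in the 3 DMSO members. Of 9 measured MHC class I and immunoproteasome genes, 9 were below 0 and 0 at least 2-fold lower, with Psmb9 at 31.0 and 70.1 CPM. The class I median was -0.30 in members, -0.57 in C1q cells, -0.35 in cells of 1 to 4 Fn1 UMIs and -0.11 in cells without Fn1. The class II median was -0.28 in members and -0.87 in C1q cells, but 0.25 in cells of 1 to 4 Fn1 UMIs and 0.42 in cells without Fn1.

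Of 10 measured macrophage genes, 2 were at least 2-fold higher in Selinexor members (Cd63 and Gpnmb) and 2 lower (Cd68 and Trem2). Of 12 chemokine and cytokine genes 0 were higher and 3 lower (Cxcl2, Ccl17 and Il1b). Over all genes 2.48% were higher and 1.26% lower. In cells of 1 to 4 Fn1 UMIs, 2 of 10 macrophage genes were also higher and 2 lower, and 3 of 13 chemokine and cytokine genes were higher and 3 lower. In cells without Fn1 the counts were 2 and 5 of 12, and 3 and 4 of 17. Cd68, a lysosomal marker of macrophages, was 105 CPM in Selinexor members and 303 CPM in DMSO members, and Trem2, a lipid-sensing receptor, 39.9 and 118 CPM. Cxcl2, a chemokine that attracts neutrophils, ranged from 0 through 1 to 23 UMIs per Selinexor member and from 0 through 5 to 37 per DMSO member, at 193 and 729 CPM. Il1b, an inflammatory cytokine, was 87.7 and 269 CPM, and Il1r2, its decoy receptor, 28.2 and 171 CPM. Ccl17, a chemokine for T cells, was 73.4 and 331 CPM, but its log2 difference was 2.53 over members with at least 10 Fn1 UMIs. Blvrb, a biliverdin reductase, and Dmkn, an epidermal secreted protein gene, completed the 15 lowest genes.

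Over all members, most genes that marked them against other cells differed by under 2-fold between the cultures, but the DMSO members had less Fn1 and the values differed within bands of Fn1. Between Selinexor and DMSO members, Mrc1 had a log2 ratio of 0.27 (-0.00 to 0.56), Mmp12 -0.13 (-0.24 to -0.02), Clec4n -0.09 (-0.24 to 0.06), Spp1 -0.15 (-0.32 to 0.02), Itga1 -0.25 (-0.56 to 0.07) and Vcan 0.27 (0.05 to 0.50). Car4 was higher in Selinexor members with a log2 ratio of 0.53 (0.26 to 0.82), and Slc7a2 was lower at -1.10 (-1.42 to -0.78). Fn1 itself, which the rule used, had a ratio of 1.04 (0.87 to 1.22). Ccr2 and Csf1r were lower in Selinexor members, at 342 and 215 CPM against 468 and 289 CPM in DMSO members.

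At 5 to 9 Fn1 UMIs, Mmp12 was 1042 CPM in Selinexor members and 1299 CPM in DMSO members, Mrc1 311 and 195 CPM, and Spp1 770 and 598 CPM. At 10 to 19, Mmp12 was 1413 CPM in the 84 Selinexor members and 3168 CPM in the 4 DMSO members, Mrc1 335 and 671 CPM, and Spp1 717 and 2297 CPM. At 20 to 49, Mmp12 was 2509 CPM in the 81 Selinexor members and 6174 CPM in the 3 DMSO members, Mrc1 427 and 692 CPM, and Spp1 848 and 941 CPM. Over all members with at least 10 Fn1 UMIs, the log2 difference of Mrc1 was -0.66, against 0.27 over all members, and that of Ccr2 was -1.0, against -0.44. The exact 95% Poisson intervals of the cultures overlapped at 20 to 49 Fn1 UMIs for Mrc1 and Spp1 and not for Mmp12, and the DMSO values above 9 Fn1 UMIs rest on 7 cells.

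Differences between the cultures in the members can be set beside those in the other classes of the same 2 libraries, which are not independent of them. Xpo1 stood at 236 CPM in Selinexor members and 67.3 CPM in DMSO members, at 166 and 44.5 CPM in cells without Fn1, and at 188 and 92.3 CPM in cycling cells. Hmgn1 stood at 494 and 98.1 CPM in members, 160 and 53.1 CPM in cells without Fn1 and 493 and 88.5 CPM in C1q cells. S100a8 was 6459 and 21356 CPM in members, 6073 and 22162 CPM in cells with Pf4, Maf or Stab1, and 1335 and 5045 CPM in C1q cells. It was 32264.5 and 45924 CPM in cells of 1 to 4 Fn1 UMIs, and closer at 73471 and 77630 CPM in cells without Fn1. Gpnmb was 82.6 and 11.2 CPM in members and 37.1 and 34.2 CPM in C1q cells. Ch25h was 40.2 and 5.61 CPM in members, 160 and 11.8 CPM in cells with Pf4, Maf or Stab1, and 2.83 and 4.31 CPM in cells without Fn1. Whether any gene differed more in the members than in another class was not tested, since each treatment was 1 library.

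**Figure D5:**
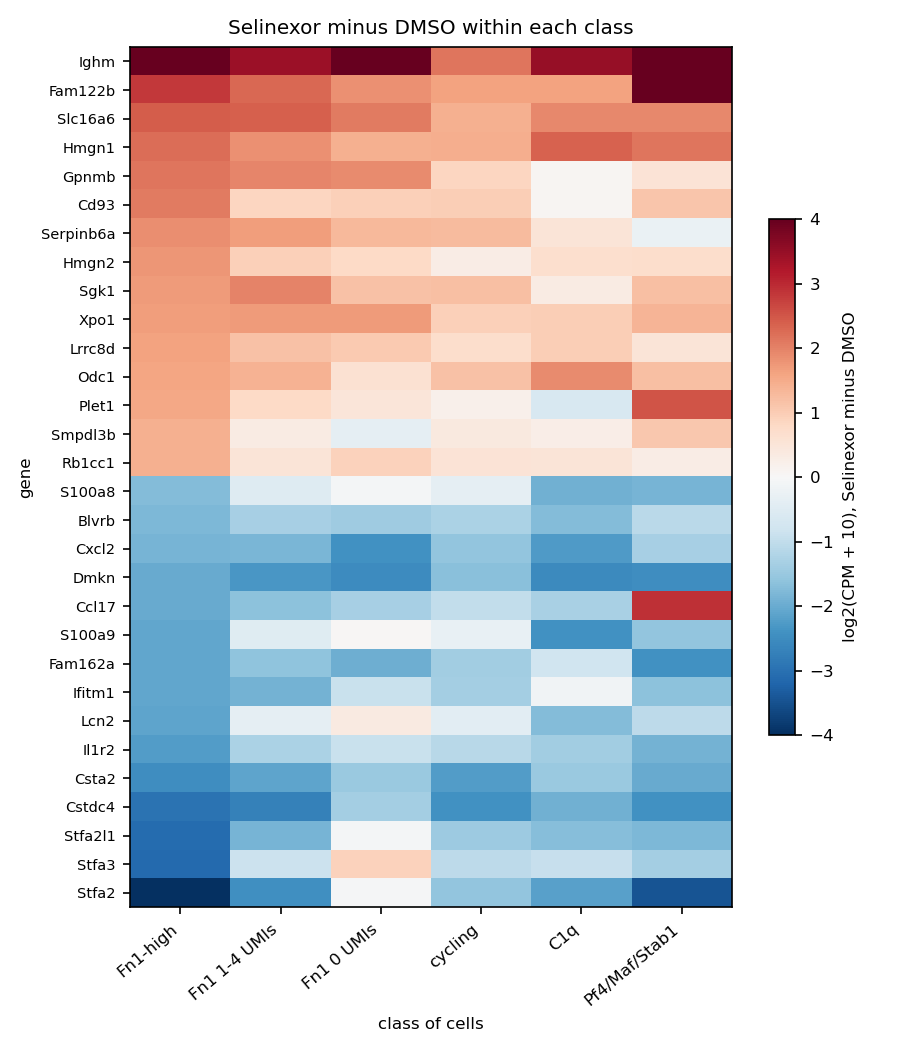
Selinexor minus DMSO on the log2(CPM + 10) scale for the 15 highest and 15 lowest genes of Fn1-high cells, in Fn1-high cells and 5 other classes. Ighm, Fam122b, Slc16a6, Hmgn1 and Xpo1 are above 0 in all 6 columns. S100a8, S100a9 and Lcn2 stand at -0.08, 0.05 and 0.36 in cells without Fn1 and at -1.72, -2.08 and -2.11 in Fn1-high cells. S100a8 and S100a9 are also below 0 in the columns of C1q cells, Pf4/Maf/Stab1 cells, cycling cells and cells of 1 to 4 Fn1 UMIs.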

How the data were processed

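The single-cell RNA libraries of the Selinexor and DMSO cultures, 1 each, were deposited as raw UMI count matrices, which the authors produced using Cell Ranger 6.1.2 against mm10, per the submitters' processing notes. Neither the annotation release nor the cell-calling rule is given in the sources used here. Tag counts entered no gene total. Every kept member had its culture's own tag as its most abundant tag. That tag held under 90% of tag UMIs in 42 of 261 Selinexor members and 11 of 32 DMSO members, with lowest shares of 64.4% and 67.9%. No doublet caller was run, and 5 Selinexor and 0 DMSO members exceeded 20000 UMIs.

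Counts were summed per class and library, scaled to CPM and compared as log2(CPM + 10) in Python 3.11.15 with numpy 2.4.6 and scipy 1.17.1. Genes with at least 50 UMIs over both sums counted as measured, and a 2-fold difference was called. Ratios have exact conditional binomial intervals without the pseudocount. A gene at 0 entered the differences as 0 plus the pseudocount, and a floor of 3 counts served only to bound the fold of such a gene. No test was run. The ratio step was tested on simulated counts.

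Members and the 40 gene lists were chosen with earlier results of these data known. Named genes were the 5 marks, the genes of the rule, Xpo1, the 15 highest and lowest differences per comparison (at least 100 UMIs and 50 CPM on 1 side, without mitochondrial, ribosomal protein, haemoglobin and unnamed genes) and up to 6 genes per list. Genes in the bands, the heat map and the correlations, and Tgfbi, Mmp14, Ly6c2, Gapdh and Pkm, were chosen after their values were seen. Coordinates are GENCODE M21 on GRCm38, the build of the counts, and sequences RefSeq.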

Additional observations from a re-analysis of the deposited data

Results flagged for a closer look

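Fn1 also appeared in cells outside the Fn1-high class. Of 783 Selinexor cells under 2000 UMIs, 5.11% had a Fn1 UMI (exact 95% interval 3.67 to 6.89), against 3.18% of 314 such DMSO cells (1.54 to 5.78), and these intervals overlap. Of 309 cycling Selinexor cells, 41.1% had at least 5 Fn1 UMIs (35.6 to 46.8), against 7.58% of 356 cycling DMSO cells (5.06 to 10.8). The cycling cells had medians of 14017 and 13318 UMIs and held 29.6% of the Fn1 UMIs of the Selinexor library and 34.9% of those of the DMSO library. Both are Fn1 signal in cells outside the members. The cells under 2000 UMIs entered no comparison, and the cycling cells entered only as part of the other cells and as a class set beside the members.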

How the results depend on the processing

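No paired analysis was possible because each treatment was 1 library with no replicate. Of the genes named for being 2-fold apart, 18 of 60 between Selinexor and DMSO members were so under all 20 alternatives, 47 of 78 against the other Selinexor cells under all 18, and 23 of 36 against the other DMSO cells under all 18. The limit on precision is the 32 DMSO members, and the causes of the shifts below were not tested.

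The share of Fn1-high cells was 25.5% in the Selinexor library and 4.48% in the DMSO library at 3 or more Fn1 UMIs, 15.5% and 0.490% at 10 or more, and 13.7% and 0.350% at 0.1% or more of UMIs. In the Selinexor library it was 16.0% of cells of 1000 or more UMIs, 26.4% of cells of 4000 or more, 18.3% with C1q, Pf4, Maf and Stab1 at 0, 31.8% with a top tag of 90% or more, and 14.7% after thinning.

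Between Selinexor and DMSO members, 475 genes were 2-fold higher and 224 lower at 10 or more Fn1 UMIs, and 639 and 296 at 0.1% or more. They were 451 and 148 with a pseudocount of 1 CPM, 13 and 34 with 50 CPM, and 43 and 36 with 200 UMIs per gene. With C1q, Pf4, Maf and Stab1 at 0, 259 were higher, and 123 were lower with 1 UMI per gene and 48 after thinning. Against the other Selinexor cells, 253 were higher and 552 lower with 1 CPM, and 21 and 67 with 50 CPM. The higher count there was 48 with C1q, Pf4, Maf and Stab1 at 0, 25 with a top tag of 90%, 48 with TMM, 50 with median-of-ratios scaling, 136 with cells weighted equally and 141 after thinning. Against the other DMSO cells, 57 were higher at 3 or more Fn1 UMIs, 73 with TMM and 75 with median-of-ratios scaling. Higher and lower counts were 888 and 1006 at 10 or more Fn1 UMIs, 1241 and 1656 at 0.1%, 582 and 1022 with 1 CPM, 28 and 56 with 50 CPM, and 399 and 730 after thinning.

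Of 7954 values of named genes under an alternative, 187 turned in sign, 16 of them for a gene that was 2-fold apart as reported, and these 16 follow. At 10 or more Fn1 UMIs, with 7 DMSO members, the log2 difference was 2.53 for Ccl17, 0.13 for Ifitm1, 1.24 for Ifitm3, 1.18 for Lcn2, 0.16 for S100a8, 0.97 for S100a9, 0.61 for Stfa2 and 0.83 for Stfa2l1. At 0.1% or more, with 5 DMSO members, it was 2.17 for Ccl17, 2.00 for Egr1, 0.38 for Lcn2 and 2.40 for Stfa2l1. It was -0.32 for Cse1l after thinning, -0.019 for Fn1 with the same mix of bands (which that mix fixes near 0), 0.54 for Stfa2 without cells at 2% or more S100a8 and S100a9, and -0.47 for F13a1 against other DMSO cells with C1q, Pf4, Maf and Stab1 at 0.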
